A study of Mus musculus with 8 samples.

Results

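Glycinergic amacrine nuclei were chosen by their transcript counts alone in 8 single-nucleus RNA libraries of adult mouse retina. A nucleus was included when it carried at least 2 unique molecular identifiers (UMIs, 1 per captured RNA molecule) of Slc6a9, the glycine transporter GlyT1, and at least 1 of Pax6, the homeobox factor of the amacrine lineage. It was left out when it had more than 1 UMI of Gad1 and Gad2 together (GABA synthesis), of Rbpms and Slc17a6 together (ganglion cells), or of Slc1a3, Rlbp1 and Glul together (Müller glia). Of 39496 barcodes with at least 1000 UMIs and at most 5% mitochondrial UMIs, 464 (1.17%) met these limits, 245 in control and 219 in knockout libraries. Slc6a9 (chr4:117691703-117732395, plus strand, GRCm39) had a median of 3 UMIs and at most 12 per member.

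The libraries compared control mice, Piezo2f/f (4 libraries), with conditional knockout mice (cKO), Olig2-cre;Piezo2f/f (4 libraries), all female at postnatal day 120. Every mouse carried the floxed Piezo2 allele, which encodes a mechanically gated ion channel, and only the cKO carried Cre, driven from the Olig2 locus of the oligodendrocyte lineage. The paper states that these cKO mice are also heterozygous for Olig2. No library came from mice with Cre alone, so Piezo2 loss, Cre and the Olig2 allele cannot be told apart here. Each library held nuclei of 6 pooled retinae, sorted for NeuN and RBPMS to enrich ganglion cells, so the members are amacrine nuclei that came through that sort and their share is not that of the whole retina. Control libraries are numbered 1 to 4 and cKO libraries 10 to 13, as in the labels.

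Amacrine cells are the inhibitory interneurons of the inner retina, and most use either GABA or glycine as transmitter. Glycinergic amacrine cells take up glycine through GlyT1, load it into vesicles with the transporter VIAAT (Slc32a1) and act mostly between the layers of the inner plexiform layer. The most abundant mammalian kind, AII, passes rod signals from rod bipolar cells to cone bipolar cells through gap junctions of connexin 36, the product of Gjd2, while other kinds are known from the transcription factor Ebf3 or from the vesicular glutamate transporter Slc17a8.

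Gjd2 (chr2:113840079-113844574, minus strand, GRCm39) and Ebf3 (chr7:136795402-136916218, minus strand) are the genes by whose detection the members were split for testing, and their promoters are shown for that reason. The sequences come from RefSeq on GRCm38.p6, cover 250 bases before to 50 bases after the annotated start, and lie at chr2:114013570-114013869 and chr7:137314396-137314695, both on the minus strand. Capitals mark matches, on either strand, to TTGGC, the half-site of NFI factors such as Nfia and Nfib, or to CCCNNGGG, a core of sites bound by EBF factors.
Gjd2: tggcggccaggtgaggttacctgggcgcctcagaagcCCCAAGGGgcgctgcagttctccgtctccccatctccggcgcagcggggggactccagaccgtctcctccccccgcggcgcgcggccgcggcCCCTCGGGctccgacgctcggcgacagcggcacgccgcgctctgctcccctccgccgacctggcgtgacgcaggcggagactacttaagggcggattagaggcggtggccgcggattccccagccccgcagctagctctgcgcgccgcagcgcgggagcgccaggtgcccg
Ebf3: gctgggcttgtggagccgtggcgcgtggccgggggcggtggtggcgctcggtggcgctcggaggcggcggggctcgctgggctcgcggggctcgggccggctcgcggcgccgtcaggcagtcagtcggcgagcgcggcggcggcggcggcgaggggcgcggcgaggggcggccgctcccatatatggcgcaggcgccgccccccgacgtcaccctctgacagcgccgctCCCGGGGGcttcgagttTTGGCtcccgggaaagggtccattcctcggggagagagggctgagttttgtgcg
The Gjd2 window held 2 CCCNNGGG matches, starting 213 and 121 bases before the start, and no TTGGC. The Ebf3 window held 1 CCCNNGGG match at 21 bases and 1 TTGGC at 4 bases before the start. Over all 32851 RefSeq windows of this length, 46.7% held TTGGC and 13.7% held CCCNNGGG, so TTGGC in particular is common, and a match shows only that these letters are present.

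Members numbered 58, 74, 63 and 50 in control libraries 1 to 4 and 66, 35, 71 and 47 in cKO libraries 10 to 13. Their median depth was 3936 UMIs (1014 to 17455), below the 6257.5 of 1104 GABAergic nuclei that were not starburst cells and the 7105.5 of 19796 ganglion nuclei. The 8 libraries held between 35697629 and 60088630 UMIs over all barcodes, and the members' sums ran from 103108 UMIs in cKO 11 to 358655 in control 2, so cKO 11 gave the least precise values. No member's barcode sequence occurred in a member of another library, while 362 of all passing barcodes shared a sequence with one in another library. A doublet caller marked 18 members (3.88%), against 4.09% of all passing nuclei.

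Rod transcripts were present in every library. Summed over the 7 rod markers the members ranged from 887 to 1956 CPM (counts per 1000000 UMIs) in control and from 949 to 1920 in cKO libraries. Horizontal cell markers (3 of 3 detected) summed to 75.3 to 153 CPM in control and 38.8 to 169 in cKO libraries, and bipolar markers to 430 to 740 and 272 to 588. Of the bipolar sums, Prkca alone gave 380 to 580 CPM in control and 233 to 516 CPM in cKO libraries. Starburst markers summed to 17.7 to 33.2 CPM in control and to 74.3, 19.4, 52.9 and 130 CPM in cKO 10 to 13. The 4 microglial markers summed to 10.9 to 14.2 CPM in control and 3.31 to 29.7 CPM in cKO libraries, with Csf1r, C1qa and C1qb at 0. The 4 oligodendrocyte markers summed to 11.1 to 31.9 CPM and 9.70 to 33.1 CPM, with Mag at 0. The part of these sources in the results was not tested except where a value is given beside a result.

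The Slc6a9 limit had a soft edge. Among nuclei that met every other limit, 374 had exactly 1 Slc6a9 UMI and stayed outside, 182 had exactly 2 and 110 exactly 3. Pooled over nuclei, Dab1 stood at 2355 CPM with 1 UMI, 5462 with 2 and 6955 with 3, while Meis2, a factor of many GABAergic amacrine cells, stood at 670, 161 and 149 CPM. A further 120 nuclei failed only for want of a Pax6 UMI and 129 passed with exactly 1.

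Some markers of glycinergic amacrine cells that the rule did not use, mainly those of AII, were higher in members, here given as a description against the 1104 GABAergic nuclei. Of 11006 genes with at least 10 CPM in either class, 285 (2.59%) were more than 2-fold higher in members in every library and 379 (3.44%) more than 2-fold lower. Dab1 (chr4:103476556-104602041, plus strand), the adaptor of the reelin pathway and an AII marker, stood at 6481 ± 348 CPM (SD, n = 8 libraries) in members and 214 ± 55.0 in GABAergic nuclei. It had a UMI in 446 of the 464 members (96.1%). By library it stood at 6211, 6650, 6823 and 7112 CPM in control and 6107, 6401, 6252 and 6292 in cKO, a narrow range in which controls 2, 3 and 4 lay above every cKO library.

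Markers of some other retinal cells had positive ratios too. The median log2 ratio was 1.15 over 7 rod markers, 1.28 over 4 cone markers and 0.95 over 4 bipolar markers, none of them counted, and it was 0.01 over 4 ganglion cell markers, -0.22 over 4 Müller glia markers and -0.04 for 1 oligodendrocyte marker. The rod markers summed to a median of 1134 CPM in members and 501 CPM in GABAergic nuclei, and all 7 bipolar markers to 431 CPM and 744 CPM. Prkca, 1 of these bipolar markers, alone held 598 to 846 CPM in GABAergic nuclei. Onecut1 of the horizontal cell list and Kdr of the endothelial list were counted as higher. The part of these cells in the class ratios was not tested.

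**Figure D1:**
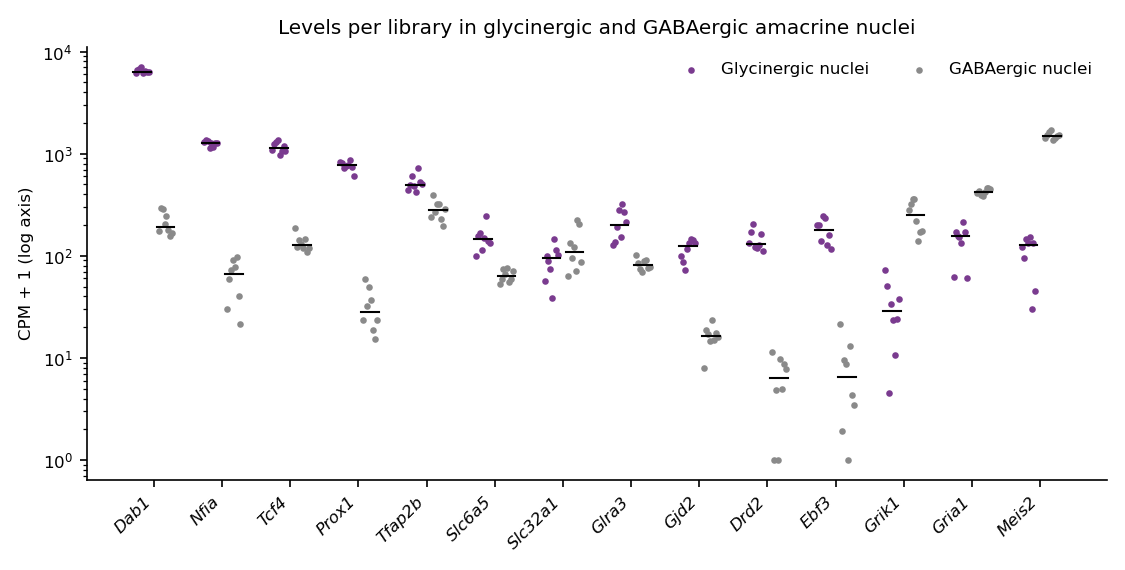
CPM + 1 of named genes in glycinergic and GABAergic amacrine nuclei, with 1 point for each of the 8 libraries on a log axis. Dab1, Prox1, Nfia and Gjd2 sit higher in the glycinergic sums of every library and Meis2 sits lower.

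Of 11 measured markers of amacrine subtypes, Prox1, Gjd2, Dab1, Ppp1r17 and Ebf3 were counted as higher and Nos1 and Tac1 as lower, with a median log2 ratio of 0.80. Of 23 measured amacrine transcription factors, 8 were counted as higher and 4 as lower, with a median log2 ratio of 0.60 beside 0.01 over all genes. The shares counted over all genes were 2.59% higher and 3.44% lower. Prox1 (chr1:189850232-189904637), a homeobox factor of AII, bipolar and horizontal cells, averaged 764 ± 80.9 CPM against 31.4 ± 15.5 in GABAergic nuclei, and bipolar nuclei also held it, at 720 CPM. Nfia (chr4:97660971-98007111), an NFI factor, averaged 1269 ± 82.0 against 60.2 ± 28.1 CPM. Nfib, Nfix, Ebf1, Ebf3, Neurod2 and Tcf4 were the other 6 that were higher. Meis2 (107 ± 46.7 against 1507 ± 118 CPM), Zfhx3, Zfhx4 and Lhx9 were the 4 that were lower.

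The genes that handle glycine were measured next. Slc6a5, the neuronal glycine transporter GlyT2, was found at 99.5, 156, 167 and 113 CPM in control and 149, 242, 139 and 133 in cKO members. It averaged 150 ± 43.5 CPM against 63.2 ± 8.93 in GABAergic nuclei, and its log2 ratio ran from 0.76 to 2.15 over libraries, so it was not counted. Starburst nuclei held 6.57 CPM, bipolar nuclei 1.04 and ganglion nuclei 0.549. Slc32a1, the vesicular transporter that both transmitters use, had a log2 ratio of -0.53. None of the 5 measured genes of glycine supply and clearance beyond the rule was counted in either direction, which is near the share over all genes and says nothing about the group, and Gldc, Shmt1 and Shmt2, enzymes that break down or make glycine, were each found in 6 or 7 members.

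Receptors are given by their counts, beside 285 genes (2.59%) counted as higher and 379 (3.44%) as lower over all genes. Of 23 glutamate receptor genes 5 were counted as lower (Grik4, Gria1, Grin2a and Grik1 among them) and none as higher, with a median log2 ratio of -1.23. Of 15 GABA receptor genes Gabrg3 was higher (2599 ± 329 against 178 ± 60.1 CPM), and Gabra2 and Gabrb1 were lower. The 6 genes of glycine receptors, gephyrin among them, had a median of -0.18 with none counted, and members held Glra3 at 211 ± 71.9, Glrb at 90.5 ± 22.6, Glra2 at 84.5 ± 27.7 and Glra1 at 4.39 ± 5.08 CPM. Among 11 receptors for acetylcholine and dopamine, Drd2 and Drd4 were higher and Drd1 was lower. Drd2 (chr9:49251654-49319477), a dopamine receptor coupled to inhibition of adenylate cyclase, ran from 111 to 202 CPM over the 8 libraries.

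Gjd2 was the only 1 of 4 gap junction genes counted as higher, at 116 ± 27.6 against 15.3 ± 4.40 CPM. Over all 11006 genes 2.59% were counted as higher and 3.44% as lower. Of the other groups, 2 of 7 calcium-binding proteins were higher (Cabp1 and Ncald). Of 19 genes of transmitter release Cplx3, a complexin, was higher, and Stx1a and Rims1 were lower. So few calls say nothing about the release genes as a group. Of 21 adhesion genes 3 were higher (Cntn4, Cntn6 and Dscaml1) and 4 lower (Dscam, Cntn1, Cntn3 and Nlgn1). Of 6 activity-dependent genes Nr4a3, Egr1 and Nr4a1 were lower and none was higher.

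With the genes of the rule left out of the ranking, the highest ratios belonged to genes outside these groups. Spink13, of a family of serine protease inhibitors, stood at 911 ± 104 CPM in members and 5.49 ± 4.30 in GABAergic nuclei. Lamp5, a lysosome-associated membrane protein of neurons, stood at 275 ± 62.9 and 4.25 ± 3.48 CPM. Slc6a12, a transporter of betaine and GABA, averaged 94.3 ± 21.7 CPM in members and had no UMI in the GABAergic sums. Gm45459, Gm49289, Gm12128, Gm49171, Ccdc24, Pkp1 and St18 filled the other places among the highest 10. Ccdc24 (chr4:117723721-117729754, minus strand) lies inside Slc6a9, by which the members were chosen. Its ratio is therefore not independent of the rule, and the part of Slc6a9 RNA in it was not tested. Kcnq5, a potassium channel subunit, headed the lower genes at 21.6 against 464 CPM, and those that followed included Tlr4, Hmcn1, Adra1b, Dock2, Pde11a, Dach2, Mkx and Gm57223.

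Clustering of the members alone gave 11 clusters at a Leiden resolution of 1. Of these, 5 are called AII-like, since the AII markers Gjd2, Prox1, Dab1, Nfia and Dner were on average above their level over all members and Dab1 was among their leading genes against all other passing nuclei, and no library held over 50% of their nuclei. They held 279 nuclei (60.1%), with Gjd2 in 147 and Ebf3 in 8. The other 6 stayed unnamed, although Dab1 was also among the leading genes of 2 of them. No AII marker was among the 10 leading genes of an AII-like cluster against the other members, so the name rests on levels. The naming limits were set after the cluster tables had been seen, and the genes that define a cluster are a description.

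**Figure D2:**
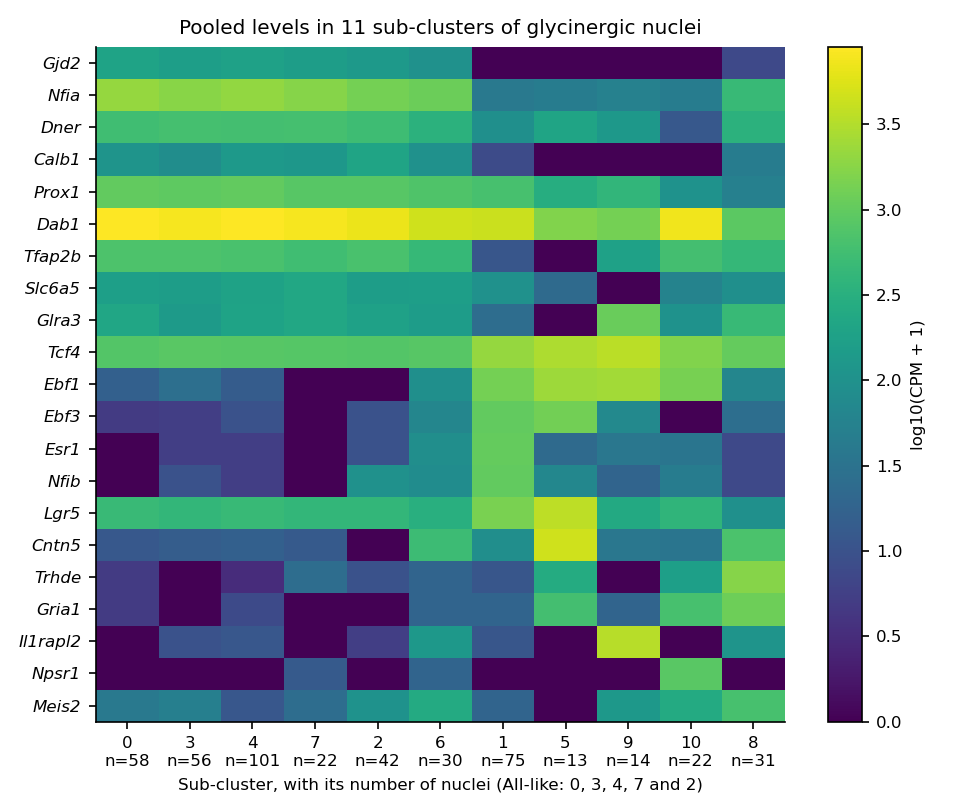
Pooled levels of named genes (rows), as log10(CPM + 1) in colour, in each of the 11 clusters of glycinergic nuclei (columns, with their number of nuclei). Gjd2 is at 0 in clusters 1, 5, 9 and 10, and Ebf1 is above 1000 CPM in the same 4.

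The largest unnamed cluster, with 75 nuclei (16.2%) and between 5 and 14 from each library, held Ebf3 at 1005, Ebf1 at 1356, Esr1 at 1029, Nfib at 998 and Thsd4 at 1999 CPM. Gjd2 was at 0 there, Nfia at 39.0 and Tfap2b at 10.6 CPM. A second Ebf3-bearing cluster of 13 nuclei held Cntn5, an adhesion protein, at 4614, Lgr5 at 3620 and Ebf3 at 1302 CPM. A cluster of 31 nuclei held Trhde at 1738, Gria1 at 1215, Meis2 at 640 and Slc17a8 at 168 CPM, with Dab1 at 898 CPM. Only 4 of its nuclei had a UMI of Slc17a8 and 10 a UMI of Meis2. It included 4 marked doublets, and its Slc6a9 level, 472 CPM, was the lowest of any cluster. A cluster of 14 nuclei held Il1rapl2 at 3359, Ebf1 at 2555 and Glra3 at 1108 CPM with no Slc6a5 UMI. A cluster of 22 held Npsr1, a neuropeptide receptor, at 884 CPM with Dab1 at 7253 and Ebf1 at 1405 CPM. The last, with 30 nuclei, was led by photoreceptor genes and included 8 of the 18 marked doublets.

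One AII-like cluster of 42 nuclei was led by Thsd7b, Tpm3 and Slc4a3. It held 3 marked doublets, 2 nuclei with horizontal cell markers and no Dab1 UMI, and in all 5 of the 9 members with horizontal cell markers that are described with the genotype results, none of which came from cKO 11. Of the 42 nuclei 20 came from cKO 11. At a resolution of 0.5 the members fell into 6 clusters with 249 AII-like nuclei (53.7%), and at 1.5 into 14 with 278 (59.9%).

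Gjd2 had a UMI in 156 members (33.6%), against 10.2% of GABAergic nuclei despite the greater depth of the latter. With each nucleus thinned to 2000 UMIs, which left out 24 members, the shares were 18.2% and 2.93%. Ebf3 was found in 94 members (20.3%) and 2.26% of GABAergic nuclei, or 16.8% and 1.01% after thinning. Only 5 nuclei held both genes, 151 held Gjd2 alone, 89 Ebf3 alone and 219 neither. Gjd2-positive nuclei were deeper than Gjd2-negative ones (median 4415 against 3708.5 UMIs), and Ebf3-positive nuclei were shallower than Ebf3-negative ones (3623.5 against 3995.5). Negative here means that no UMI was captured, so the negative groups also hold nuclei whose transcript was missed.

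What else differed between members with and without a Gjd2 UMI was asked by summing each kind within each library and comparing the sums with library as a block. Positive nuclei numbered 15, 25, 16, 18, 21, 13, 28 and 20 per library. Of 2572 genes tested by edgeR's quasi-likelihood test, 165 were higher in positive nuclei (6.42%) and 196 lower (7.62%), with a median log2 difference of -0.02. A gene was called where its adjusted p was under 0.05 and its log2 difference was over 0.5 in size. With status taken from all UMIs and counts thinned to 2000 UMIs per nucleus, 94 were higher and 103 lower of the 815 genes that could still be tested. DESeq2 called 110 higher and 268 lower, and edgeR with no filter on low counts 151 and 523.

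Nfia was higher in Gjd2-positive nuclei of all 8 libraries. It stood at 1684, 2031, 1885, 1792, 1886, 1338, 1955 and 1786 CPM in positive nuclei and at 1186, 958, 1137, 660, 991, 1068, 735 and 702 CPM in negative nuclei. Every positive value lay above every negative value, and the log2 difference was 0.99 ± 0.12 (SE; edgeR adjusted p = 1.32e-06). Ebf1, an early B-cell factor family member, stood at 455, 757, 369, 932, 531, 271, 717 and 750 CPM in negative nuclei. In positive nuclei it stood at 21.3, 71.8, 0, 8.83, 23.7, 0, 7.41 and 0 CPM. The groups did not overlap, and the log2 difference was -5.07 ± 0.31 (edgeR adjusted p = 4.04e-11).

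**Figure D3:**
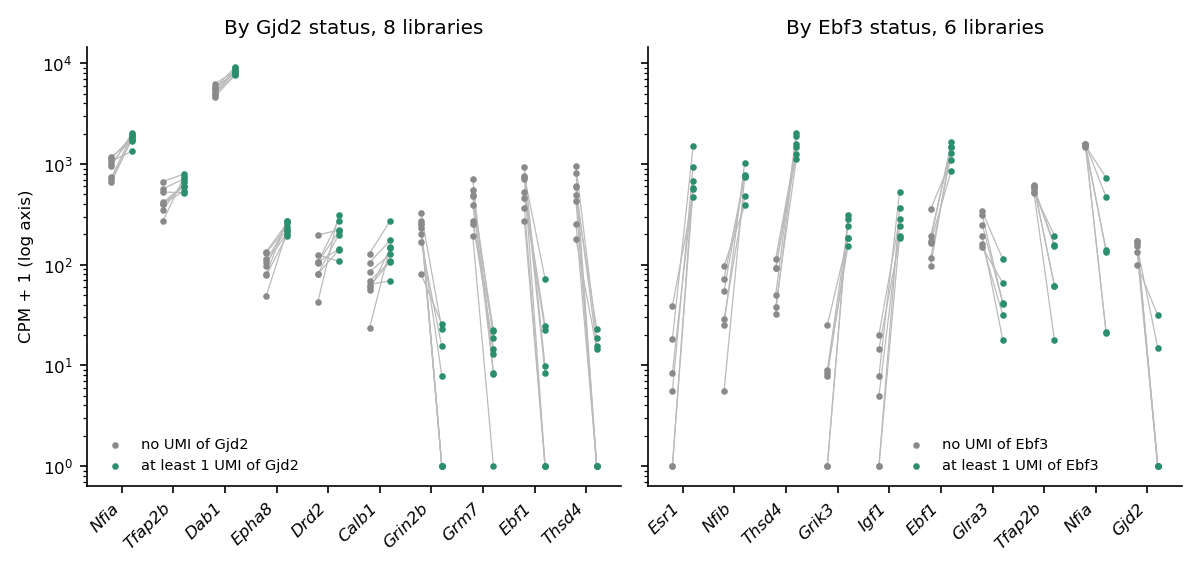
CPM + 1, on a log axis, of named genes in members with and without a UMI of Gjd2 or of Ebf3, with a line joining the sums of each library. Nfia rises and Ebf1 falls with Gjd2 in all 8 libraries, and Esr1 and Nfib rise while Glra3 falls with Ebf3 in all 6 libraries.

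Dab1, Calb1 and Drd2 also rose with Gjd2. Dab1 rose from 5330 to 8365 CPM (log2 0.64, edgeR adjusted p = 4.58e-07) and Calb1, the calcium-binding calbindin, from 72.7 to 143 CPM (log2 0.90, edgeR adjusted p = 0.00598). Drd2 rose from 105 to 200 CPM (log2 0.94 ± 0.25, edgeR adjusted p = 0.00885), in 7 of the 8 libraries. Prox1 averaged 678 CPM in negative and 915 CPM in positive nuclei, and its log2 difference of 0.43 ± 0.12 (edgeR adjusted p = 0.0106) stayed under the size limit.

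Slc6a5 was also higher with Gjd2. Positive nuclei held 149, 194, 191, 150, 166, 248, 207 and 166 CPM and negative nuclei 82.1, 132, 158, 86.4, 141, 239, 83.6 and 95.7 CPM. The positive value was the higher in 8 of 8 libraries although the ranges overlapped, with a log2 difference of 0.59 ± 0.18 (edgeR adjusted p = 0.0248). Slc32a1 stood at 88.6 and 91.2 CPM, with a log2 difference of 0.13 ± 0.24 (edgeR adjusted p = 0.817).

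Counts by group are given beside 6.42% higher and 7.62% lower over all 2572 genes tested. The glutamate receptor genes that were called were all lower. Of 13 tested, 7 were lower in Gjd2-positive nuclei and none higher, with a median log2 difference of -0.72. They included the metabotropic receptors Grm7 (417 to 12.5 CPM) and Grm8, the NMDA receptor subunit Grin2b (223 to 8.53 CPM), the AMPA receptor subunit Gria1 (222 to 7.04 CPM), the kainate receptor subunit Grik2, and Grid1. Another AMPA receptor subunit, Gria3, went the other way, from 1001 to 1429 CPM. Its log2 difference of 0.50 ± 0.11 (edgeR adjusted p = 0.00175) did not pass the size limit. Of 11 amacrine transcription factors Nfia and Tfap2b rose, and Ebf1, Ebf3, Nfib, Meis2 and Tcf4 fell. Of 12 adhesion genes 5 rose and 5 fell, among them Sdk1, a sidekick protein of synaptic lamina choice, which rose (log2 0.94), and Dscam, which fell (log2 -3.95). None of 3 glycine receptor genes was called, and 1 each of 6 GABA receptor genes rose (Gabrg3) and fell (Gabbr2). So few genes say nothing about either group.

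The largest falls also included Thsd4, a secreted matrix protein (537 ± 260 to 8.49 ± 9.43 CPM, edgeR adjusted p = 2.70e-12), Kcnip4, which binds Kv4 potassium channels (3725 ± 799 to 103 ± 64.7 CPM, edgeR adjusted p = 3.03e-15), Zmat4, Kirrel3 and Pde7b. The largest rises were those of Gm49171, the ephrin receptors Epha8 (97.9 ± 29.0 to 234 ± 30.7 CPM, edgeR adjusted p = 2.24e-05) and Epha7 (286 to 613 CPM), Gm45459, Rnf152, Cntnap1, Plcxd3, Ccdc85c, the growth factor Fgf1 (104 to 211 CPM) and the protease Tll1 (770 to 1614 CPM). Sag, the rod arrestin and the only 1 of 3 rod markers tested that was called, moved with the split, from 204 CPM in negative to 96.0 in positive nuclei (log2 -0.95). Prkca, a protein kinase of rod bipolar cells and the 1 bipolar marker tested, was lower with Gjd2, at 551 against 137 CPM (log2 -2.01, edgeR adjusted p = 6.93e-07). GABAergic nuclei held Prkca at 738 ± 86.1 CPM in control and 702 ± 95.9 CPM in cKO libraries. These values lay above the members' 447 ± 92.0 and 357 ± 119 CPM, so Prkca was not particular to bipolar cells here. The part of rod and bipolar RNA in these calls was not tested. Of the 6 rising genes with a promoter window, 4 held TTGGC and none CCCNNGGG, and of the 6 falling genes 4 held TTGGC and 3 CCCNNGGG, Ebf3 itself among the latter. Over all windows 46.7% held TTGGC and 13.7% CCCNNGGG. So few genes say nothing about either motif.

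The members were split a second time by Ebf3, so the nuclei of the 2 comparisons are largely the same and the comparisons are not independent. This one used 6 libraries (control 1, 2 and 4, and cKO 10, 12 and 13) with 14, 15, 13, 14, 13 and 11 positive nuclei, since the other 2 had too few. Of 2044 genes tested, 222 were higher with Ebf3 (10.9%) and 224 lower (11.0%) by edgeR's quasi-likelihood test, with a median log2 difference of 0.04. With counts thinned in the same way, 130 were higher and 131 lower of 858 tested in 5 libraries, and with no filter on low counts 276 were higher and 545 lower.

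Esr1 (chr10:4561593-4955626, plus strand), the oestrogen receptor alpha, rose most. It stood at 581, 1504, 562, 470, 682 and 933 CPM in Ebf3-positive nuclei and at 7.43, 17.1, 0, 38.2, 0 and 4.53 CPM in negative nuclei. The groups were far apart in every library, with a log2 difference of 6.08 ± 0.41 (edgeR adjusted p = 1.48e-08). The growth factor Igf1 rose from 7.25 to 300 CPM, the kainate receptor subunit Grik3 from 7.67 to 225 CPM, the receptor kinase Egfr from 17.3 to 392 CPM and Thsd4 from 68.7 to 1562 CPM. Nfib rose from 46.4 ± 34.2 to 696 ± 229 CPM (log2 3.99 ± 0.36, edgeR adjusted p = 3.74e-07), and Pde7b, Ror1, Spats2l and Arhgap24 were the other genes among the 10 largest rises.

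The 2 glycine receptor subunits tested moved in opposite directions with Ebf3. Glra2 stood at 258, 213, 211, 235, 221 and 304 CPM in positive and 37.2, 102, 73.5, 33.4, 47.5 and 40.8 CPM in negative nuclei. Glra3 stood at 64.6, 30.4, 112, 16.8, 40.1 and 40.5 CPM in positive and 149, 160, 338, 191, 313 and 249 CPM in negative nuclei. For neither subunit did the groups overlap, and the log2 differences were 2.07 ± 0.29 for Glra2 (edgeR adjusted p = 3.71e-05) and -2.16 ± 0.30 for Glra3 (edgeR adjusted p = 3.52e-05). Gphn (gephyrin), which anchors these receptors at synapses, was the third gene of the list tested, at 1154 ± 154 CPM in positive and 1125 ± 72.6 CPM in negative nuclei, and was not called (edgeR adjusted p = 0.865). Slc6a5 averaged 148 ± 11.1 CPM in negative and 73.8 ± 58.7 CPM in positive nuclei, a log2 difference of -0.98 ± 0.35 that was not called (edgeR adjusted p = 0.0579).

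Gjd2 fell from 148 ± 28.0 to 7.41 ± 12.6 CPM with Ebf3 (log2 -3.92 ± 0.55, edgeR adjusted p = 3.52e-05). Nfia fell from 1542 ± 46.0 to 253 ± 287 CPM (log2 -2.82 ± 0.40, edgeR adjusted p = 3.83e-05), and Tfap2b and Drd2 fell too (log2 -2.41 and -2.18). Nrg1, a neuregulin growth factor, stood between 40.5 and 4564 CPM in positive nuclei and averaged 13228 ± 778 CPM in negative ones (log2 -3.37 ± 0.50, edgeR adjusted p = 6.42e-05). Slc6a12 fell from 107 to 5.93 CPM, and Gm49171, Sh3bp4, Pcsk6, Sec14l5, Gfra2, Sgcz and Gm45459 filled the other places among the largest falls. Dab1 fell from 7077 to 4018 CPM (log2 -0.81).

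Counts by group are given beside 10.9% higher and 11.0% lower over all 2044 genes tested. Of 14 glutamate receptor genes 6 rose with Ebf3 (Grik3, Grm8, Grin2b, Grik2 and Grid1 among them) and 2 fell (Grm5 and Gria3). Of 10 amacrine transcription factors Nfib, Nfix, Ebf1 and Tcf4 rose, and Tfap2b and Nfia fell. Of 11 release genes Rims1 and Unc13c, which prepare vesicles for fusion, rose and Stx3 fell. That count is near the shares over all genes and says nothing about the release genes as a group. Gabrg3 and Gabra3 fell among 5 GABA receptor genes, and 4 of 12 adhesion genes rose and 4 fell. Prkca, of the bipolar list but also high in GABAergic nuclei, rose from 323 to 841 CPM with Ebf3 (log2 1.43, edgeR adjusted p = 2.64e-05). Cacna2d3, a calcium channel subunit, rose from 238 to 1996 CPM with Ebf3 (log2 3.11), and fell from 836 to 56.3 CPM with Gjd2 (log2 -3.74). Pde3a, a phosphodiesterase, rose from 260 to 944 CPM with Ebf3 (log2 1.94) and fell from 530 to 118 CPM with Gjd2 (log2 -2.15). Of the 8 rising genes with a promoter window, 3 held TTGGC and 3 held CCCNNGGG, and of the 5 falling genes 3 and 2, Gjd2 itself among the latter. The shares over all windows were 46.7% and 13.7%, and so few genes say nothing about either motif.

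Whether the knockout changed how many glycinergic nuclei were captured was tested on the shares by an exact permutation test of 4 against 4 libraries, two-sided, whose smallest p is 0.0286. Members made up 1.12%, 1.31%, 1.22% and 1.84% of passing nuclei in control and 1.24%, 0.668%, 1.21% and 1.08% in cKO libraries. The highest value was control 4 and the lowest cKO 11, and the ranges overlapped. The means were 1.37% ± 0.323 and 1.05% ± 0.264 (SD, n = 4 each), a difference of -0.322 percentage points (exact p = 0.171). Without control 4 it was -0.166 points (exact p = 0.400).

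Of all amacrine nuclei, counted as members plus 1239 GABAergic nuclei with starburst cells included, members made up 30.2%, 31.4%, 27.0% and 29.6% in control and 26.9%, 22.6%, 31.7% and 18.9% in cKO libraries. The means differed by -4.52 points (29.5% ± 1.83 against 25.0% ± 5.54, exact p = 0.229). The size of this difference depended on single cKO libraries. Without cKO 12 it was -6.75 points with an exact p of 0.0286, the smallest that 3 against 4 libraries allow in this test. Without cKO 13 it was -2.48 points (exact p = 0.400).

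**Figure D4:**
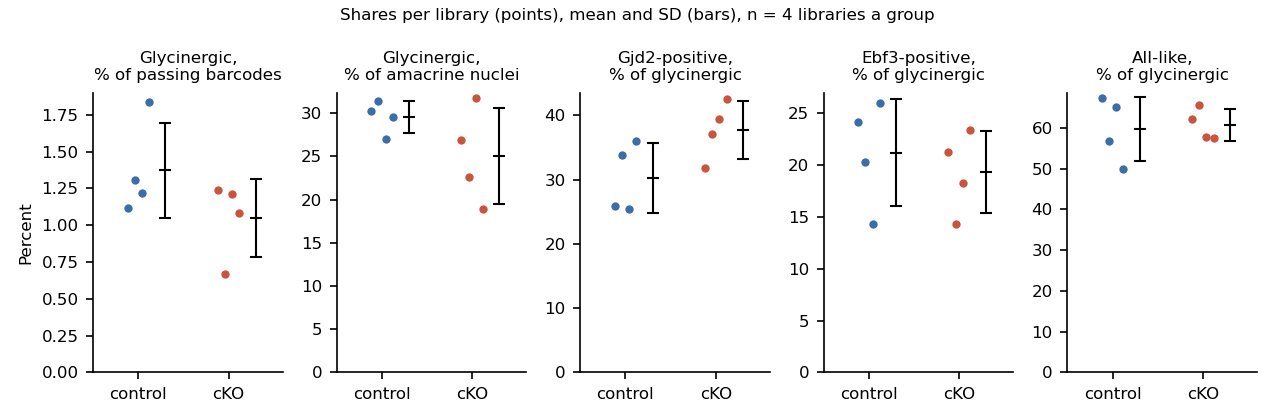
Shares in percent for each of the 8 libraries, with the mean and SD of each genotype. The control and cKO ranges overlap for the share of nuclei, of amacrine nuclei and of AII-like nuclei.

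Within the members, Gjd2 was found in 25.9%, 33.8%, 25.4% and 36.0% of control and 31.8%, 37.1%, 39.4% and 42.6% of cKO nuclei. The difference of 7.48 points (exact p = 0.114) and that after thinning, 6.48 points (14.8% ± 2.60 against 21.2% ± 3.29, exact p = 0.0571), both missed the threshold. Ebf3 was found in 21.2% ± 5.17 of control and 19.3% ± 3.94 of cKO members (exact p = 0.600). The Ebf3 difference of -1.87 points ran from -4.17 without control 3 to -0.198 without cKO 11. After thinning, which also left out some members, it changed sign, to 1.74 points (exact p = 0.600), so its direction was not settled. The part of depth in this change was not tested. AII-like clusters held 59.8% ± 7.93 and 60.8% ± 3.94 (exact p = 0.829), a difference that depended on the clustering resolution. Slc17a8 was found in 4 members in all (0.862%), 1.13% and 0.532% by genotype (exact p = 0.714).

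Piezo2, the gene targeted, was at the limit of detection in the members of both genotypes. Control libraries held 0, 2, 4 and 1 UMIs (0, 5.58, 14.2 and 3.63 CPM), from 4 nuclei, and every cKO library held 0. The difference of -5.85 CPM did not pass an exact permutation test (p = 0.143). Without control 1, the only control library at 0, it was -7.80 CPM. The exact p was then 0.0286, a floor that 3 libraries above 0 against 4 at 0 must reach. Without control 3 the difference was -3.07 CPM. All 4 UMIs of control 3 lay in 1 nucleus that the doublet caller marked. With doublets removed the difference was -1.71 CPM (exact p = 0.429), and in members with no ganglion or glial UMI it was -1.16 CPM (exact p = 1.00). In a single cKO library a count of 0 allows up to 3 counts, which is between 9.92 and 29.1 CPM. Ganglion nuclei held 13.0 ± 2.86 CPM and GABAergic nuclei 2.57 CPM over the 8 libraries. Olig2, whose locus drives Cre, had no UMI in any member, and Piezo1, the related channel, was found in 3 nuclei.

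The genotypes were then compared gene by gene in the members. Of 5128 genes tested by edgeR's quasi-likelihood test 0 were called (0%), 205 had an unadjusted p under 0.05, and DESeq2 also called 0 with 147 at an unadjusted p under 0.05. Without cKO 11, 9 genes were called, and with no filter on low counts 51 were, 24 higher and 27 lower. The median log2 difference was 0.01. These p-values measure the spread between libraries, each a pool of retinae.

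The genes of the glycinergic identity gave no call either. Prox1 averaged 779 ± 46.4 CPM in control and 749 ± 112 in cKO members, Nfia 1287 ± 110 and 1252 ± 52.3, and Slc6a5 134 ± 32.8 and 166 ± 51.5. Gjd2 differed from these genes in its order. Control members held 99.5, 86.4, 71.0 and 116 CPM and cKO members 134, 145, 142 and 133 CPM. The groups did not overlap, but the log2 difference of 0.56 ± 0.21 had an unadjusted p of 0.0137 and an edgeR adjusted p of 1.000, and 205 genes had an unadjusted p under 0.05. Slc4a3, Plcb1, Cartpt, Trpm3, Pard3b and Camsap1 did not overlap between genotypes either, and the share of such genes over all genes was not counted. Cacna2d3 (533 ± 169 and 540 ± 146 CPM) and Pde3a (349 ± 64.2 and 402 ± 103 CPM) were near equal in the means, and Lama2 was found in 7 nuclei.

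**Figure D5:**
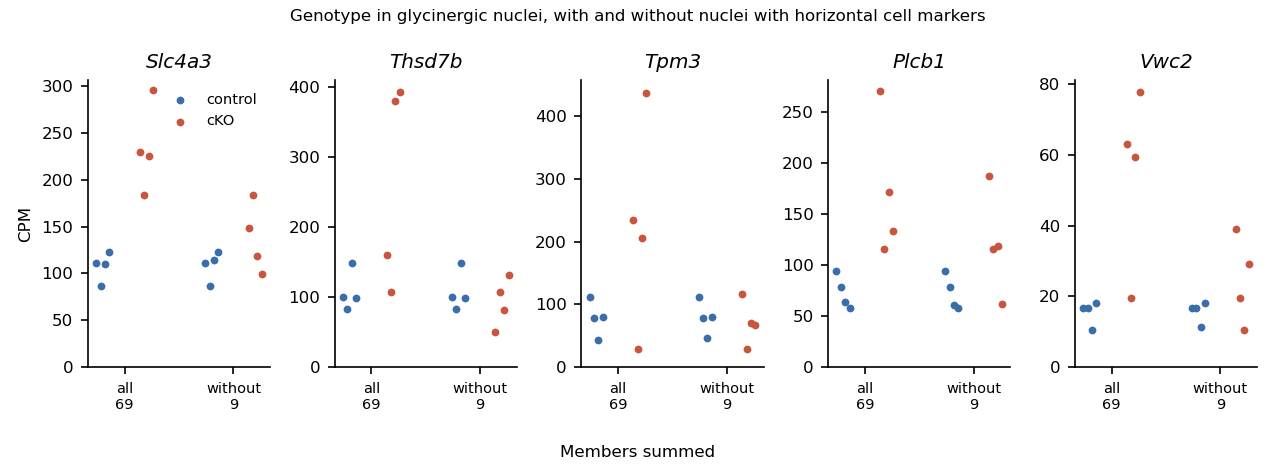
CPM of 5 genes in the summed members of each of the 8 libraries (points, coloured by genotype), with all 464 members and without 9. The number printed under the left points of each panel is not the number of members. The control and cKO points of Slc4a3, Plcb1 and Vwc2 lie apart with all members and overlap without the 9 nuclei that carry 3 or more UMIs of Onecut1 and Lhx1.

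Slc4a3, an anion exchanger, had the smallest adjusted p. It stood at 111, 86.4, 110 and 123 CPM in control and 230, 184, 225 and 296 CPM in cKO members. The groups did not overlap, and the log2 difference was 1.15 ± 0.20 (edgeR adjusted p = 0.0591). Plcb1, Tpm3, Cartpt and Thsd7b followed among the higher genes, with log2 differences of 1.29, 1.70, 1.85 and 1.35 (edgeR adjusted p = 0.134 to 0.287). Trpm3, Pard3b, Camsap1, Nyap2 and Tenm3 led the lower genes, with log2 differences of -0.73, -1.02, -0.97, -0.65 and -0.92 (edgeR adjusted p = 0.292 to 0.905). Cartpt, a neuropeptide precursor, owed much of its cKO mean to cKO 10, with 595 CPM there against 184, 155 and 92.6 in the other cKO libraries. Control libraries held 40.0 to 88.4 CPM, so the groups did not overlap.

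Several of these genes sat in few nuclei. In 9 members Onecut1 and Lhx1, factors of horizontal cells, reached 3 UMIs together, a limit chosen after the data were seen. There were 3 in control 3 and 2 each in cKO 10, 12 and 13. These 9 held 33.3% of all Slc4a3 UMIs in members (115 of 345), 50.8% of Thsd7b, 54.0% of Tpm3, 26.2% of Plcb1 and 48.0% of Vwc2, but 0.304% of Cartpt and 0.310% of Trpm3. Most of the Slc4a3, Thsd7b, Tpm3, Plcb1 and Vwc2 UMIs of these 9 came from 4 cKO nuclei of 7217, 11370, 14016 and 14086 UMIs. The first 2 had no UMI of Dab1 or Slc32a1, and the doublet caller marked the other 2, which had 61 and 50 Dab1 UMIs. Cartpt and Trpm3 were concentrated in other nuclei, with 153 of 329 Cartpt UMIs and 210 of 969 Trpm3 UMIs in the 4 nuclei that held most, and 81 Cartpt UMIs in 1 nucleus.

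Without the 9 nuclei Slc4a3 averaged 109 ± 15.8 in control and 138 ± 36.9 CPM in cKO members, a log2 difference of 0.27 ± 0.22 (edgeR adjusted p = 0.999). Thsd7b and Tpm3 changed sign, to -0.27 and -0.03. Plcb1 shrank to 0.74 ± 0.28 (72.7 ± 16.7 CPM in control and 121 ± 51.0 in cKO members, edgeR adjusted p = 0.999). Cartpt (1.89), Trpm3 (-0.69) and Pard3b (-0.96) moved little. Again 0 genes were called by edgeR, with 176 at an unadjusted p under 0.05.

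Whether the genotype difference was unlike that in GABAergic amacrine nuclei of the same libraries was tested as an interaction. Of 8055 genes tested by edgeR's quasi-likelihood test 1 was called (0.0124%), 377 had an unadjusted p under 0.05, and DESeq2 called 0 with 169. The gene was Vwc2 (chr11:11064001-11218931, plus strand), a secreted antagonist of bone morphogenetic proteins. Members held 16.6, 16.7, 10.6 and 18.2 CPM in control and 63.2, 19.4, 59.5 and 77.8 CPM in cKO libraries, where cKO 11 stood near control. GABAergic nuclei held 230, 327, 310 and 306 CPM in control and 214, 167, 203 and 255 CPM in cKO libraries. The interaction was 2.43 ± 0.35 on the log2 scale (edgeR adjusted p = 0.00532). With marked doublets removed, 0 genes were called (smallest edgeR adjusted p = 0.158).

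Vwc2 too depended on the nuclei with horizontal cell markers. Without them members averaged 15.7 ± 2.96 CPM in control and 24.4 ± 12.2 in cKO libraries, the interaction was 1.10 ± 0.45 (edgeR adjusted p = 1.00), and 0 genes were called, with 345 at an unadjusted p under 0.05. Among the next genes, Dock4 (log2 2.02, edgeR adjusted p = 0.136) and Cpne4 (3.41, edgeR adjusted p = 0.139) had 51.5% and 60.0% of their member UMIs in the same 9 nuclei. The mitochondrial genes mt-Co1 (log2 -1.07, edgeR adjusted p = 0.139) and mt-Nd5 (-2.03), and Adamts18, Camsap1 and Gm44196, led in the negative direction, and none was called.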

How the data were processed

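The authors deposited raw UMI counts of every observed barcode for each library, made from 10x 3′ v3.1 single-nucleus reads with Cell Ranger 7.0.0 on GRCm39, per the submitters' processing notes and the study's methods. Their later steps (CellBender, quality filters, doublet removal, integration) are not in these counts, so free RNA was not subtracted here.

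Barcodes with at least 1000 UMIs and at most 5% mitochondrial UMIs were kept. Raw counts were summed per library and class, using sums of more than 10 nuclei and more than 1000 UMIs, and tested with edgeR 4.0.16 (R 4.3.3; quasi-likelihood test, TMM, genes filtered for low counts, Benjamini-Hochberg adjustment over all genes tested). A gene was called where its adjusted p was under 0.05 and its log2 difference over 0.5 in size. Genotype was fitted alone, status with library as a block, and the interaction over both classes, also with library as a block. The SE of an edgeR log2 difference is its size divided by the square root of the F statistic, not a separate estimate. DESeq2 1.42.0 was an alternative. CPM are per 1000000 UMIs of the sum. Class ratios used an offset of 1 CPM. Shares were compared by exact permutation tests. Clusters came from scanpy 1.11.5 (1000 variable genes, 20 components, 15 neighbours).

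Named genes were every called gene (genotype, interaction) or the 5 with the smallest p in each direction; the 10 largest rises and falls in the same direction in every library with at least 20 CPM (status); the 10 highest and lowest ratios; and up to 4 genes per list. Further list genes were named after their values were seen. The members, gene lists and status genes were chosen with earlier results of these data known. Scrublet doublets were marked, not removed, at an assumed rate of 0.8% per 1000 barcodes; its own threshold marked 0 to 2 nuclei in cKO 10, 11 and 13. Counting of reads from overlapping genes is that of the authors' pipeline. The labels give no batch or date. Test code was checked on simulated counts. A few items are not reported here.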

Additional observations from a re-analysis of the deposited data

Results flagged for a closer look

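In 74 sets of 4 libraries, 5 values stood apart from the other 3 of their genotype by Dixon's test at the 95% level, where chance gives about 1 in 20. The share of members with an Slc17a8 UMI was 2.13% in cKO 13, which is 1 nucleus, and 0 in the other cKO libraries. The mitochondrial gene mt-Co1 stood at 70.4 CPM in cKO 13 and at 223 to 241 CPM in the others. Adamts18, a secreted protease, stood at 3.71 CPM in cKO 13, which is 1 UMI, and at 0 in the others. Where 3 libraries are at 0, any value above 0 in the other is picked out by this test, so these values say nothing more than that 1 nucleus or 1 UMI was found. Nfia stood at 1174 CPM in cKO 11 against 1271 to 1282 in the others. Slc6a5 stood at 242 CPM in cKO 11 against 133 to 149 in the others. cKO 11 had the fewest members (35) and member UMIs (103108). The genotype difference of Vwc2 differed between glycinergic and GABAergic nuclei by 2.43 on the log2 scale by the interaction test, and 36 of its 75 member UMIs lay in the 9 nuclei with horizontal cell markers.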

How the results depend on the processing

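No paired analysis was possible because the control libraries (1 to 4) and cKO libraries (10 to 13) share no replicate number. Genotype calls were 51 with no low-count filter and 0 to 9 with 1 library left out. The 9 came without cKO 11, and were Tpm3, Slc4a3, Dock4, Thsd7b, Plcb1, Vwc2, Arhgap15, Tmeff2 and Ryr3. The 51 included lens crystallins such as Cryaa (log2 -7.90, 127 member UMIs). Without nuclei with Onecut1 and Lhx1, Tpm3 (-0.03) and Thsd7b (-0.27) changed direction, as did Tenm3 (0.12) in members with no ganglion or glial UMI. Interaction calls were 0 with DESeq2, 0 with doublets removed, 0 without the Onecut1 and Lhx1 nuclei, 29 with no filter, and 1 to 8 with a library left out (8 without cKO 11, 3 without cKO 13, 2 without control 2 or control 3).

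With no filter 151 genes were higher and 523 lower with Gjd2, and 276 higher and 545 lower with Ebf3. DESeq2 called 110 higher and 268 lower with Gjd2, of which 234 were also called by edgeR, and 239 higher and 202 lower with Ebf3, of which 300 were. With Gjd2 status taken from all UMIs and counts thinned to 2000 UMIs, an alternative chosen after seeing the data, 94 genes were higher and 103 lower of 815 tested, and 173 of these 197 were also called without thinning. For Ebf3 the same gave 130 and 131 of 858 tested, 240 of the 261 also called without thinning, and thinning before status was set gave 140 and 134 in 3 libraries. Thinning before Gjd2 status left under 3 libraries and was not run, nor was a comparison by Slc17a8.

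With 1 library left out, the genotype difference in the share of nuclei ran from -0.408 (without control 1) to -0.166 points (without control 4), that in the share with Ebf3 from -4.17 to -0.198 points, that in the share of amacrine nuclei ran from -6.75 to -2.48 points, Piezo2 from -7.80 CPM (without control 1, exact p = 0.0286) to -3.07, the share with Slc17a8 from -1.13 to 0.0815 points (above 0 without control 3), and the AII-like share of glycinergic nuclei from -2.27 to 3.48 points, below 0 without control 2 (-0.0164), control 4 (-2.27) or cKO 11 (-0.665). The AII-like difference was -12.8 points at a resolution of 0.5, where 6 clusters were found. The Ebf3 difference was 1.74 points after thinning. The Piezo2 difference was -1.71 CPM with doublets removed and -1.16 CPM in members with no ganglion or glial UMI. Its p without control 1 was bound to be the smallest possible, since only that control library and every cKO library had 0 Piezo2 UMIs. For counts near 0, 3 counts equal 8.36 to 29.1 CPM in the members of a library.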
